A study of Rattus norvegicus with 13 samples.

Results

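The 77 genes described here encode transcription factors of the forkhead (Fox), Sox, T-box, sine oculis (Six3, Six4 and Six6), Dlx, LIM homeobox (Lhx), Iroquois (Irx) and Gata families, and they are 77 of the 14506 genes measured. They were chosen by symbol alone: a family name followed by a number (for forkhead genes, by a class letter from a to s and a number), with 4 symbols left out. A gene with several probe sets was read from its brightest probe set, by the mean of the 13 arrays. The families held 29 Fox, 13 Sox, 9 Tbx, 7 Lhx, 6 Irx, 6 Gata and 4 Dlx genes, and Six3, Six4 and Six6.

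Skin-derived precursors (SKPs) are dermal cells that grow as spheres, and mesenchymal stromal cells (MSCs) served as the other mesenchymal cell. SKPs came from dorsal trunk, facial and ventral trunk skin, with 3 isolates each, and MSCs had 4 isolates. Each isolate came from adult Sprague Dawley rats and had been passaged 2 times, and the labels name no genotype or treatment. RNA of each isolate was put on 1 Affymetrix Rat Gene 1.0 ST array (13 arrays). The series asks, by its title, whether an adult dermal stem cell with neural crest-like features can arise from skin of distinct developmental origins. Neither the tissue that gave the MSCs nor any culture medium is stated in the labels, so cell type and culture cannot be told apart.

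These families set cell identity and position during development, and many of their members remain active in adult mesenchyme. Forkhead proteins range from the Foxo factors, which insulin signalling keeps out of the nucleus, to Foxm1, which drives mitotic genes. Sox, T-box, LIM homeobox and Iroquois factors pattern the limb, face, body wall and hair follicle, and Gata factors act in blood, gut, heart and skin. Most facial dermis is of neural crest origin, whereas somites form the dorsal dermis of the trunk and lateral plate mesoderm the ventral.

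All values are log2 RMA levels, and a difference of 1 is a doubling or halving. A gene was called where limma's Benjamini-Hochberg adjusted p, over all genes of a comparison, was under 0.05. Background was taken per group as the 95th percentile of the mean levels of olfactory receptor genes, and it was 4.03 for both dorsal and facial SKPs, 3.94 for ventral SKPs and 4.04 for MSCs. Of the 77 genes, the number above it was 65 for dorsal, 61 for facial and 64 for ventral SKPs and 63 for MSCs. There were 61 above it in every group, and 10 below it in every group: Foxa1, Foxa2, Gata1, Gata4, Irx4, Six6, Sox6, Tbx19, Tbx20 and Tbx22. Sox4 and Foxn3 had the highest means over all arrays, 8.98 and 8.76, although levels of different probe sets are not on 1 scale.

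The labels were set against marker lists. All 10 markers of SKPs and dermal precursors were above background in each SKP region, and 9 of them also in MSCs. Between SKPs and MSCs, 7 of the 10 were called higher in SKPs, led by Crabp1 at 4.87 log2 units and Alx4 at 2.75. Snai2 was lower. By region, 5 were called higher than in MSCs in dorsal SKPs and 7 each in facial and ventral SKPs. Markers of other cells also differed. The mean of 16 macrophage and leukocyte markers ran from 4.38 to 7.28 on dorsal, 6.42 to 10.12 on facial and 5.46 to 5.82 on ventral SKP arrays, against 4.25 to 4.86 on MSC arrays. The mean of 9 smooth muscle and pericyte markers ran from 5.37 to 6.04 on SKP arrays and from 8.09 to 9.72 on MSC arrays. Dorsal array 3 stood apart from its group, with 9.55% and 7.67% of genes over 2-fold different from dorsal arrays 1 and 2, against 2.07% between those. MSC arrays 1 and 2 differed by over 2-fold in 0.76% of genes and arrays 3 and 4 in 2.25%, but across these pairs the share was 4.61% to 6.58%. In bulk cultures such as these, fewer cells of a type and less RNA per cell cannot be told apart.

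Between SKPs (the mean of the 3 regions) and MSCs, the clearest differences were low Foxp1, Foxm1, Lhx2 and Tbx4 and high Irx1, Irx2 and Foxo3 in SKPs. In all, 25 of the 77 genes were called (32.5%), 8 higher and 17 lower in SKPs. The background over all genes was 25.3% called, with 13.1% higher and 12.2% lower. The median difference was -0.08 over the 77 genes and -0.02 over all genes. By family, the calls were 3 higher and 5 lower of 29 Fox genes, 2 and 3 of 13 Sox genes, and 1 and 2 of 9 T-box genes. Of the homeobox families, 2 of 6 Irx genes were higher, and 2 of 4 Dlx, 1 of 7 Lhx genes and Six4 were lower. Of the Gata genes, 3 of 6 were lower. Calls for 10 of the 25 genes held under each of the 23 alternative settings tried: Foxp1, Foxm1, Foxo3, Irx1, Irx2, Lhx2, Tbx4, Sox5, Gata3 and Dlx5. With the mean of the macrophage and leukocyte markers as a covariate, 14 genes were called, and calls for Foxs1, Foxq1, Dlx3, Gata2 and Foxj2 were among those lost. That mean was itself higher on most SKP arrays, so this fit cannot tell leukocyte content and cell type apart.

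**Figure D1:**
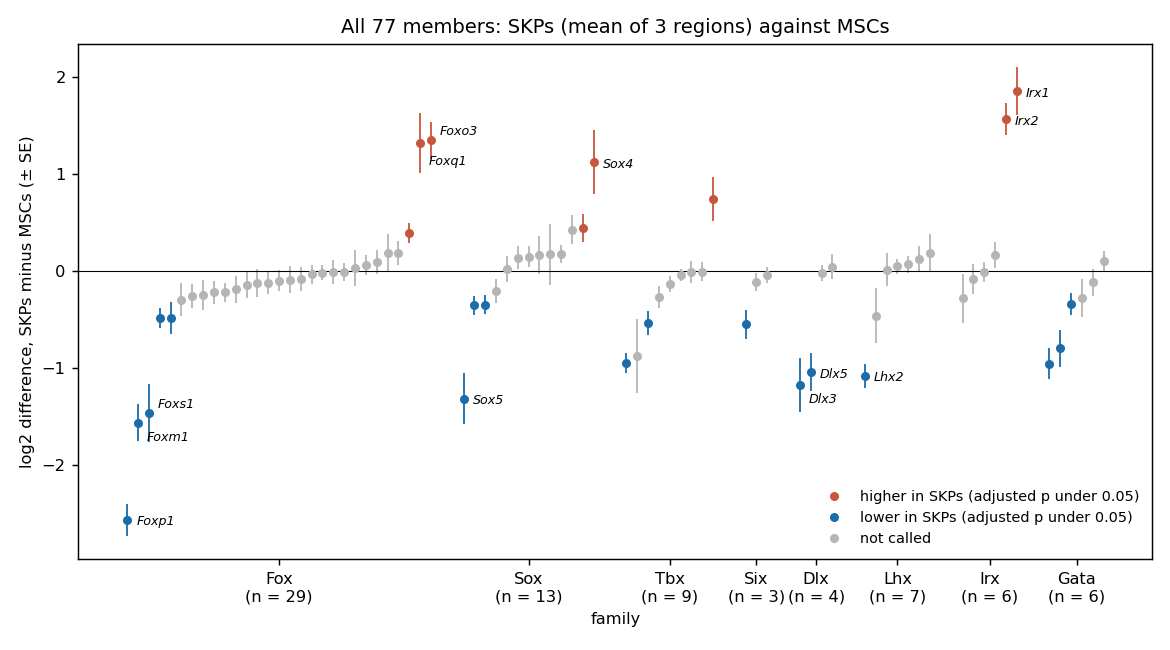
The log2 difference between SKPs (mean of 3 regions) and MSCs of each of the 77 genes is plotted on the vertical axis, grouped by family and ordered by size within it, with bars for the standard error of the fit (SE). Red points were called higher (8 genes), blue lower (17 genes) and grey were not called (52 genes), and Foxp1 lies lowest at -2.57 and Irx1 highest at 1.85.

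Foxp1, a forkhead repressor required in mouse for heart and B cell development, had the largest difference of the 77 genes. Its level was 6.62 at the lowest, 7.02 at the median and 8.10 at the highest of the 9 SKP arrays, against 10.04, 10.03, 9.52 and 9.67 on the 4 MSC arrays. Every MSC array lay above every SKP array by more than 1 log2 unit. Foxp1 fell by 2.57 on the log2 scale (SE 0.16, adjusted p = 6.94e-07), which is 5.92-fold lower in SKPs. Against MSCs its difference was -2.67 for dorsal, -1.87 for facial and -3.17 for ventral SKPs, all called.

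Irx1 and Irx2, Iroquois factors that both lie on chromosome 1 and pattern limb, heart and nervous system in vertebrates, were the genes most above MSCs. Irx1 read 6.91, 7.10 and 8.47 in dorsal SKPs, 6.01, 5.97 and 5.75 in facial SKPs and 6.01, 6.55 and 6.48 in ventral SKPs, against 4.36, 4.97, 4.81 and 4.80 in MSCs. SKP and MSC arrays did not overlap, and the dorsal arrays were the highest. Irx1 rose by 1.85 (SE 0.25, adjusted p = 0.000192, 3.60-fold). Irx2 read 7.65, 7.72 and 8.50 in dorsal SKPs, 7.23, 7.01 and 6.95 in facial SKPs and 7.63, 7.91 and 7.58 in ventral SKPs, against 5.67, 6.10, 6.30 and 5.99 in MSCs. It rose by 1.56 (SE 0.16, adjusted p = 3.44e-05, 2.95-fold), again with no overlap. The third Iroquois gene of that chromosome, Irx4, was below background in every group.

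Promoter sequence is shown for Foxp1, Irx1 and Irx2, which had some of the largest differences between SKPs and MSCs, and for Tbx15, which differed between skin regions. Each is the 250 bases before the gene's start in RefSeq, assembly GRCr8, read 5′ to 3′ on the gene's strand. Foxp1 lies at chr4:133353281-133353530 (minus strand), Irx1 at chr1:33122872-33123121 (plus strand), Irx2 at chr1:32494931-32495180 (minus strand) and Tbx15 at chr2:189265123-189265372 (plus strand). Capitals mark the forkhead motif TGTTTAC in Foxp1 and the CCAAT motif, or ATTGG on the other strand, in the other genes.
Foxp1: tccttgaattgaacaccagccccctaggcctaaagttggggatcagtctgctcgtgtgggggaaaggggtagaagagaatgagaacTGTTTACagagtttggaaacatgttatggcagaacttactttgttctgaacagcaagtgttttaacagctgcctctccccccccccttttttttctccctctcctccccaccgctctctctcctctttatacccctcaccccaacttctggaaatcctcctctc
Irx1: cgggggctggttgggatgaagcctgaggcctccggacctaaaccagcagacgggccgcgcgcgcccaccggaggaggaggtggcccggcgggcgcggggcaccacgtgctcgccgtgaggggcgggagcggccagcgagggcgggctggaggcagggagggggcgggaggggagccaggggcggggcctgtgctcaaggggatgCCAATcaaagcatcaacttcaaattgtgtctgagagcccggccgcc
Irx2: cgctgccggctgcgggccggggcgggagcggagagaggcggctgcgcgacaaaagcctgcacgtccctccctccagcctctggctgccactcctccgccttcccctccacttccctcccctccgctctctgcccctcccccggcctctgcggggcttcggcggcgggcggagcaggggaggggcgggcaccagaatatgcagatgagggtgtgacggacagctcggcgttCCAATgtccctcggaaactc
Tbx15: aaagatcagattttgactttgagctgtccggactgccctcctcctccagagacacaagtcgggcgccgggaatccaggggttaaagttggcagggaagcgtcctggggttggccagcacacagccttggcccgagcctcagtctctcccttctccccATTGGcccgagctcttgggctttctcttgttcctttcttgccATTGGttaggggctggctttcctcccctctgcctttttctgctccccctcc
The Foxp1 sequence is 49.6% G and C, against 72.8% for Irx1, 71.6% for Irx2 and 58.4% for Tbx15. RefSeq promoters were matched for 51 of the 77 genes, and 6 motifs were searched on both strands. The forkhead motif, which reads GTAAACA on the other strand, stood in 1 of the 51, that of Foxp1 itself, beginning 164 bases before the start, and in 2.57% of the 11970 promoters of all measured genes. CCAAT stood in 20 of the 51 (39.2%) and in 35.6% of all promoters. In Irx1 it began 46 bases before the start, in Irx2 20 bases and in Tbx15 93 and 51 bases. The Sox motif AACAAT stood in 4 of the 51 (7.84%) and 7.71% of all, the Iroquois motif ACANNTGT in 3 (5.88%) and 4.63%, and the Gata motif AGATAA in 2 (3.92%) and 8.6%. The T-box motif AGGTGTGA was in 0.919% of all promoters and in none of the 51 windows. A match describes letters in this window and no more.

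Among the other forkhead genes, Foxm1, the activator of genes for mitosis, was lower in SKPs. Foxm1 ranged from 5.67 to 6.71 with a median of 6.12 on SKP arrays, against 7.43, 8.12, 7.29 and 8.08 on MSC arrays, without overlap. It fell by 1.56 (SE 0.19, adjusted p = 9.05e-05, 2.95-fold lower). Of a list of its mitotic targets, 9 of 9 measured fell in SKPs, with a median of -2.19 against -0.02 over all genes. Ccnb1, a cyclin needed to enter mitosis, fell by 2.67, and Nek2, a kinase of the centrosome, fell by 2.59. The mean of the 9 targets was 5.12 to 7.04 on SKP arrays and 7.64 to 8.43 on MSC arrays, with the lowest value on dorsal array 3. Whether the level of Foxm1 bears on that of the targets was not tested.

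Foxo3, a Foxo factor of stress resistance and cell cycle arrest, was higher in SKPs. Its level was 8.75, 8.86 and 8.59 in dorsal SKPs, 9.34, 9.40 and 9.15 in facial SKPs and 8.50, 8.70 and 8.56 in ventral SKPs, against 8.07, 7.98, 7.07 and 6.99 in MSCs. SKP arrays were all above MSC arrays, facial SKPs were highest, and MSC arrays 1 and 2 lay above arrays 3 and 4. Foxo3 rose by 1.35 (SE 0.19, adjusted p = 0.000311, 2.54-fold). Foxo4, of the same subfamily, rose by 0.39 (adjusted p = 0.0126), which did not hold when MSC array 4 was left out or under 2 other settings. Of 12 measured targets of Foxo factors, 4 rose and 2 fell (median 0.19). Gadd45a, a growth arrest gene, rose by 2.21, and Cited2, a coactivator-binding factor, fell by 1.83.

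Foxq1, needed for hair shaft structure in mouse, and Foxs1, found in mouse in perivascular cells, differed in opposite directions. Foxq1 was 6.44, 6.81 and 7.12 in dorsal SKPs, 7.42, 7.35 and 7.33 in facial SKPs and 5.46, 6.30 and 5.81 in ventral SKPs, against 6.20, 6.05, 4.78 and 4.39 in MSCs. The ventral arrays overlapped with MSC arrays 1 and 2. Foxq1 rose by 1.32 (SE 0.31, adjusted p = 0.00842), but by 0.55 (adjusted p = 0.101) without MSC arrays 3 and 4. Foxs1 ran from 4.50 to 5.20 on SKP arrays with a median of 5.05, against 5.76, 5.65, 6.81 and 7.52 on MSC arrays. It fell by 1.46 (SE 0.30, adjusted p = 0.00367), by 0.73 without MSC arrays 3 and 4 and by 2.19 without arrays 1 and 2, both called. Of the 9 smooth muscle and pericyte markers, 7 fell in SKPs (median -3.21), and their mean was 9.55 and 9.72 on MSC arrays 3 and 4, against 8.09 and 8.18 on arrays 1 and 2. Their part in the difference of Foxs1 was not tested.

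Smaller forkhead differences were called for Foxj2 and Foxp4, both lower in SKPs. Foxj2 fell by 0.49 (adjusted p = 0.0037), and Foxp4, a relative of Foxp1 with which it can dimerise, fell by 0.48 (adjusted p = 0.0477). The call for Foxp4 was lost under 15 of 23 settings. The remaining 21 forkhead genes were not called. Foxn3, a checkpoint-associated repressor with the highest level of the family, averaged 8.78 ± 0.64 for dorsal, 8.77 ± 0.19 for facial and 8.89 ± 0.02 for ventral SKPs (SD, n = 3 each) and 8.63 ± 0.31 in MSCs (SD, n = 4). The neural crest factor Foxd3 differed by -0.14 (adjusted p = 0.476).

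**Figure D2:**
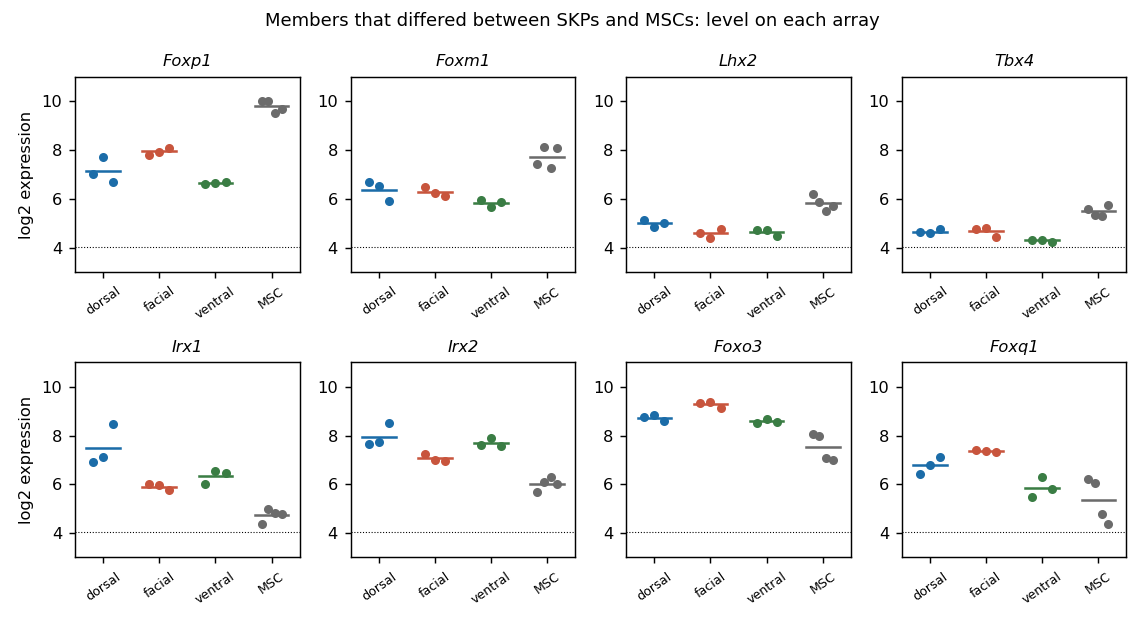
The log2 level on each of the 13 arrays (points) with group means (lines) is plotted for 8 genes in dorsal, facial and ventral SKPs and in MSCs, with the highest group background level (4.04) as a dotted line. For Foxp1, Foxm1, Lhx2 and Tbx4 all MSC points lie above all SKP points, for Irx1, Irx2 and Foxo3 all lie below, and for Foxq1 the ventral SKP and MSC points overlap.

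Sox genes moved in both directions. Sox4, a SoxC factor of progenitor survival, was 8.85, 9.47 and 10.58 in dorsal SKPs, 9.07, 9.32 and 8.86 in facial SKPs and 9.53, 9.02 and 9.21 in ventral SKPs, against 7.64, 7.50, 8.88 and 8.79 in MSCs. MSC array 3 reached the lowest SKP arrays, and array 4 lay just below them. Sox4 rose by 1.12 (SE 0.33, adjusted p = 0.0254), but by 0.49 (adjusted p = 0.382) without MSC arrays 1 and 2. Its relative Sox12 fell by 0.35 (adjusted p = 0.0213), a call lost under 7 of 23 settings. The third SoxC gene, Sox11, was not called at 0.17 (adjusted p = 0.747), with MSC arrays at 4.71, 5.30, 6.99 and 6.13.

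Sox5, a partner of Sox9 in cartilage, was near background in SKPs. It ran from 3.90 to 4.92 with a median of 4.49 on SKP arrays, against 6.44, 6.48, 5.31 and 4.998 on MSC arrays, without overlap. Sox5 fell by 1.32 (SE 0.26, adjusted p = 0.00282), by 1.97 without MSC arrays 3 and 4 and by 0.66 without arrays 1 and 2, both called. Of 11 measured cartilage targets of Sox5, Sox6 and Sox9, 1 rose and 2 fell (median -0.18). Acan, the large cartilage proteoglycan, fell by 5.22, while Hapln1, which links that proteoglycan to hyaluronan, was below background in MSCs and rose by at least 3.55. Sox10, the neural crest and glial factor, was between 5.06 and 5.53 on SKP arrays and 4.83 and 5.24 on MSC arrays and was not called (0.17, adjusted p = 0.202). Of 6 measured Sox10 targets, Mitf, the melanocyte regulator, rose by 2.25 and Pmp22, a myelin gene, fell by 1.00. Sox14, an interneuron factor, fell by 0.35 (adjusted p = 0.0181), which did not hold under 5 of 23 settings. Sox18 was called higher (adjusted p = 0.0411), a call lost under 14 of 23 settings. It was above background in ventral SKPs alone, so no size is given for SKPs as a whole. In ventral SKPs it was at least 1.06 above MSCs (adjusted p = 9.04e-05), a call that held under all 24 settings.

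T-box genes of the limb and body wall differed in part. Tbx4, the hindlimb and lung mesenchyme factor, was low in SKPs, from 4.25 to 4.79 with a median of 4.60, against 5.59, 5.34, 5.28 and 5.75 on MSC arrays. The arrays did not overlap, and Tbx4 fell by 0.95 (SE 0.10, adjusted p = 4.07e-05). Its differences from MSCs were -0.83 for dorsal, -0.82 for facial and -1.20 for ventral SKPs. Tbx15, which sets the dorsal pigment boundary in mouse skin, fell by 0.54 (adjusted p = 0.00795), but by 0.37 (adjusted p = 0.131) without MSC arrays 3 and 4. Tbx3, mutated in ulnar-mammary syndrome, rose by 0.74 (adjusted p = 0.0332), and its call was lost under 10 of 23 settings, among them leaving out MSC arrays 1 and 2 (adjusted p = 0.144) or arrays 3 and 4 (adjusted p = 0.129). Tbx18, a factor of mouse dermal papilla and pericytes, was 6.97, 7.08, 9.07 and 8.05 in MSCs and was not called (-0.88, adjusted p = 0.116).

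Calls among the LIM homeobox and Dlx genes, and for Six4, were all toward lower levels in SKPs. Lhx2, a hair follicle stem cell factor in mouse, was 4.39 to 5.14 on SKP arrays with a median of 4.73, against 6.22, 5.86, 5.51 and 5.72 on MSC arrays. The arrays did not overlap, and it fell by 1.08 (SE 0.12, adjusted p = 6.81e-05). Of 7 measured partners of LIM homeobox proteins 3 rose and 2 fell (median 0.40). Lmo2, which bridges LIM-binding and haematopoietic factors, rose by 1.63, and its relative Lmo1 fell by 1.07. Dlx3, a hair, tooth and placenta factor, was 5.78, 5.98 and 6.21 in dorsal SKPs, 5.72, 5.43 and 5.02 in facial SKPs and 5.45, 5.43 and 5.61 in ventral SKPs, against 7.36, 7.67, 6.05 and 6.12 in MSCs. Dlx3 fell by 1.17 (SE 0.28, adjusted p = 0.00886), and the call was lost without MSC arrays 1 and 2 (-0.46, adjusted p = 0.0857), the higher pair. Dlx5, the osteoblast factor, was below background in SKPs (3.24 to 3.69) and read 4.17, 4.05, 5.30 and 4.83 in MSCs. Against the background level it fell by at least 0.58 in SKPs (adjusted p = 0.00219). That bound uses the mean of all MSC arrays, of which arrays 1 and 2 lay close to the MSC background of 4.04. Six4, a muscle precursor factor, fell by 0.55 (adjusted p = 0.0164), but by 0.35 (adjusted p = 0.228) without MSC arrays 1 and 2, and of its 2 measured Eya and Dach partners Eya2 rose by 0.97.

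Gata genes were lower in SKPs as far as they were called. Gata3, a factor of T helper cells and of the mouse hair follicle sheath, was 3.84 to 5.23 on SKP arrays with a median of 4.45, against 5.47, 5.30, 5.52 and 5.48 on MSC arrays. There was no overlap, and Gata3 fell by 0.96 (SE 0.16, adjusted p = 0.000968). Its mean was 4.58 in dorsal and 3.98 in ventral SKPs, both called against MSCs, and 4.91 in facial SKPs, which was not called. The ventral mean lay close to the ventral background of 3.94. Gata2, a blood progenitor and mast cell factor, fell by 0.80 (SE 0.19, adjusted p = 0.00962), but by 0.49 (adjusted p = 0.149) without MSC arrays 1 and 2. Gata4, a heart factor, was called lower (adjusted p = 0.0442) but was below background in every group, so no size is given. Both measured Gata cofactors fell, Zfpm1 by 0.55 and Zfpm2, which was below background in SKPs, by at least 2.73. Of 7 erythroid and mast cell markers 1 rose, Kit, and 3 were above background in each SKP region. Kit was also on the list of melanocyte markers given below.

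Cofactors shared by several families were called in both directions. Of 9 TALE homeobox cofactors, Pbx3 and Meis1 fell, by 0.80 and 0.79, and 1 rose. Of 5 Groucho corepressors, which many homeobox and forkhead proteins recruit, Tle4 rose by 1.06, Tle1 fell by 0.77 and 1 more rose. Neither of the pairs of neighbouring family members Dlx3 and Dlx4 (starts within 500 kb) or Six4 and Six6 was called as a pair: Dlx4 differed by -0.02, and Six6 was below background.

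Each region set against the same 4 MSC arrays gave 17 calls in dorsal SKPs (6 higher, 11 lower, 22.1%), 14 in facial SKPs (5 and 9, 18.2%) and 22 in ventral SKPs (6 and 16, 28.6%). The background over all genes was 16.5% for dorsal (8.77% higher, 7.76% lower), 19% for facial (9.47% and 9.58%) and 24.4% for ventral SKPs (13% and 11.4%), and these comparisons share their MSC arrays. Several genes were called in only part of the regions, and for some of them the differences are given side by side. Foxq1 differed by 1.44 for dorsal, 2.01 for facial and 0.50 (not called) for ventral SKPs. Tbx3 differed by -0.14 (not called) for dorsal, 1.36 for facial and 1.00 for ventral SKPs. Gata2 differed by -1.19 in dorsal, -0.03 (not called) in facial and -1.18 in ventral SKPs, and Tbx15 by -0.91, -0.04 (not called) and -0.66 in the same order. Sox5 differed by -1.05 for dorsal (adjusted p = 0.0505), -1.52 for facial and -1.38 for ventral SKPs. The call for Foxq1 in dorsal SKPs was lost under 9 of 24 settings, and that for Tbx3 in ventral SKPs under 7. In ventral SKPs alone, Sox8 was called higher (mean 5.26 against 4.35 in MSCs, adjusted p = 0.00461). Foxp4 was called lower there alone (6.09 against 7.04, adjusted p = 0.00558), and both calls held under all 24 settings. Foxj2 and Gata3 were called lower in dorsal and ventral but not in facial SKPs. Irx5 was called lower in facial SKPs alone (5.56 against 6.27, adjusted p = 0.0253), a call lost under 6 of 24 settings.

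Facial against trunk SKPs (the mean of dorsal and ventral) compares skin whose dermis is mostly of crest origin with skin of mesodermal origin. The labels give the skin site only, so site and origin cannot be told apart. Gata2, Foxp1, Tbx15 and Foxj2 were higher in facial SKPs, and Irx5 and Sox18 lower, with Sox18 above background in ventral SKPs alone. These 6 of 77 genes are 7.79%, against a background of 2.7% of all genes (1.28% higher, 1.42% lower). The median difference was -0.04, and -0.02 over all genes. Gata2 was 6.14, 5.92 and 5.23 in facial SKPs, against 4.45, 4.86 and 4.50 in dorsal and 4.52, 4.74 and 4.59 in ventral SKPs. All facial arrays lay above all trunk arrays, and Gata2 rose by 1.15 (SE 0.23, adjusted p = 0.0249, 2.22-fold). The call for Gata2 was lost under 6 of 24 settings, among them leaving out facial array 1 or 2 or any ventral array.

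Foxp1 was 7.81, 7.93 and 8.10 in facial SKPs, against 7.02, 7.71 and 6.71 in dorsal and 6.62, 6.64 and 6.68 in ventral SKPs. It rose by 1.05 (SE 0.19, adjusted p = 0.0176), and dorsal array 2 came closest to the facial arrays. Tbx15 was 8.41, 8.88 and 8.66 in facial SKPs, against 7.54 to 8.10 on the 6 trunk arrays with a median of 7.98, again without overlap. It rose by 0.74 (SE 0.15, adjusted p = 0.0262). Foxj2, a forkhead activator, was 7.46, 7.71 and 7.77 in facial SKPs, against 6.84 to 7.34 with a median of 7.15 on trunk arrays, and it rose by 0.52 (adjusted p = 0.0414). That call was lost under 18 of 24 settings, against 7 for Tbx15 and 3 for Foxp1.

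Irx5, an Iroquois factor of heart and limb on chromosome 19, was 5.69, 5.21 and 5.79 in facial SKPs, against 6.04, 6.11 and 6.37 in dorsal and 6.67, 6.87 and 6.88 in ventral SKPs. It fell by 0.93 (SE 0.18, adjusted p = 0.0236) with no overlap, a call lost under 6 of 24 settings. Its neighbour Irx6 was not called. Irx3, from the same chromosome, was 6.34, 6.91 and 6.65 in facial SKPs, against 7.17 to 7.38 on the trunk arrays, and did not pass the test (-0.64, adjusted p = 0.286). Irx1 and Irx2 also missed it, at -1.01 (adjusted p = 0.0864) and -0.77 (adjusted p = 0.0575). Thus 1 of 6 Iroquois genes was called, and the median over the 6 was -0.70. The palate and tooth factor Lhx8 was 4.57, 5.46 and 5.59 in facial SKPs, against 4.20 to 4.59 on trunk arrays, with 1 facial array inside the trunk range and a difference of 0.77 (adjusted p = 0.0933). Tbx3 differed by 0.93 (adjusted p = 0.0911). Among cofactors, Meis1 fell by 0.89 and Lmo2 rose by 1.19 in facial SKPs.

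None of the 6 calls between facial and trunk SKPs held under all 24 settings. The count of 6 changed when arrays were left out, and so did the share of all genes called. It was 1 without facial array 2 (2.21% of all genes), 3 without facial array 3 (1.03%), and 2 when any of the 3 ventral arrays was left out (1.03% to 1.17%). It was also 2 without dorsal array 3 and facial array 3 together (1.46%). The macrophage and leukocyte mean was 7.87, 6.42 and 10.12 in facial SKPs, against 7.28, 5.18 and 4.38 in dorsal and 5.46, 5.47 and 5.82 in ventral SKPs. With that mean as a covariate in limma, 0 of the 77 genes were called and 15 had an unadjusted p under 0.05, while 0.386% of all genes were called. The differences were then 1.47 for Gata2, 0.91 for Foxp1, 1.00 for Tbx15, 0.57 for Foxj2 and -1.12 for Irx5. The smallest adjusted p among the 6 genes was 0.0711. The covariate itself varied with region, so this fit cannot tell leukocyte content and region apart.

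**Figure D3:**
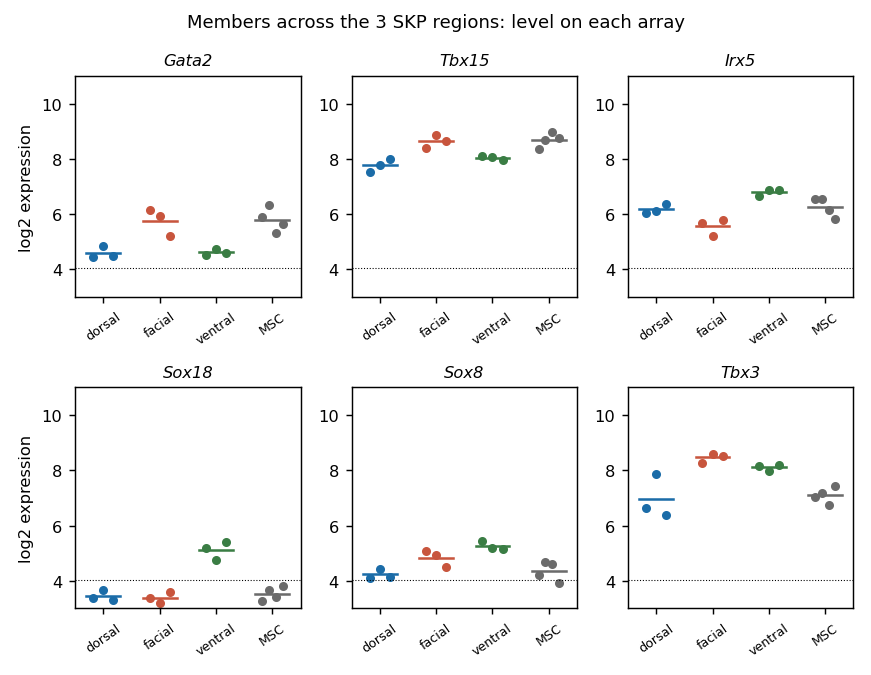
The log2 level on each array (points) with group means (lines) is plotted for 6 genes in dorsal, facial and ventral SKPs and in MSCs, with the highest group background level (4.04) as a dotted line. Facial points lie above all other SKP points for Gata2 and Tbx15 and below them for Irx5, and for Sox18 the ventral points alone lie above the line.

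Dorsal against ventral SKPs compares trunk skin whose dermis forms from somites with that from lateral plate mesoderm. Site and origin again cannot be told apart. Sox18 and Sox8 were lower in dorsal SKPs, and no other gene was called. These 2 of 77 genes are 2.6%, below the background of 6.11% of all genes (2.35% higher, 3.76% lower). The count was 1 without ventral array 1 (2.3% of all genes) and 4 without dorsal array 1 (6.17%). The median difference was 0.10, and 0.05 over all genes. Sox18, a SoxF factor of endothelium that is also active in mouse dermal papilla, was 3.38, 3.68 and 3.30 in dorsal SKPs, against 5.18, 4.74 and 5.40 in ventral SKPs. It was 3.36, 3.18 and 3.58 in facial SKPs and 3.27, 3.67, 3.40 and 3.82 in MSCs, so that only the 3 ventral arrays were above background. Against the background level, Sox18 was at least 2.11-fold lower in dorsal SKPs (adjusted p = 0.000792). In facial against trunk SKPs it was at least 1.19-fold lower (adjusted p = 0.02), and the facial arrays overlapped with the dorsal ones. That facial call was lost under 5 of 24 settings.

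Endothelial markers differed the same way. Of 9 measured, Sox18 among them, 5 fell in dorsal against ventral SKPs (median -1.45, or -0.99 with levels below background raised to it). Pecam1, the adhesion molecule of endothelium, fell by at least 2.16, and Emcn, an endothelial sialomucin, by at least 1.44. All 9 were above background in ventral SKPs, and 3 were above it in each other group, with Pecam1, Emcn, Kdr and Cdh5 below it there. Without Sox18 the mean of the list was 3.85 to 4.16 on dorsal and 4.13 to 4.51 on facial arrays, 5.05 to 5.67 on ventral arrays and 4.05 to 4.50 on MSC arrays. Their part in the difference of Sox18 was not tested. The other SoxF genes, Sox7 and Sox17, were not called.

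Sox8, a SoxE factor and relative of Sox9 and Sox10, was 4.11, 4.44 and 4.14 in dorsal, against 5.43, 5.19 and 5.17 in ventral SKPs. The 6 arrays did not overlap, and Sox8 fell by 1.03 (SE 0.21, adjusted p = 0.0136), which did not hold when ventral array 1 was left out (adjusted p = 0.0657). Facial SKPs lay between, at 5.07, 4.93 and 4.50. Tbx3 was 6.64, 7.87 and 6.40 in dorsal, against 8.17, 7.96 and 8.19 in ventral SKPs, and did not pass the test (-1.14, adjusted p = 0.053). Gata6, a factor of heart and gut, was 4.36, 4.71 and 4.63 in dorsal, against 5.28, 5.43 and 5.61 in ventral SKPs (-0.87, adjusted p = 0.0815). Irx1 was not called either (1.15, adjusted p = 0.0675), with its highest value on dorsal array 3.

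**Figure D4:**
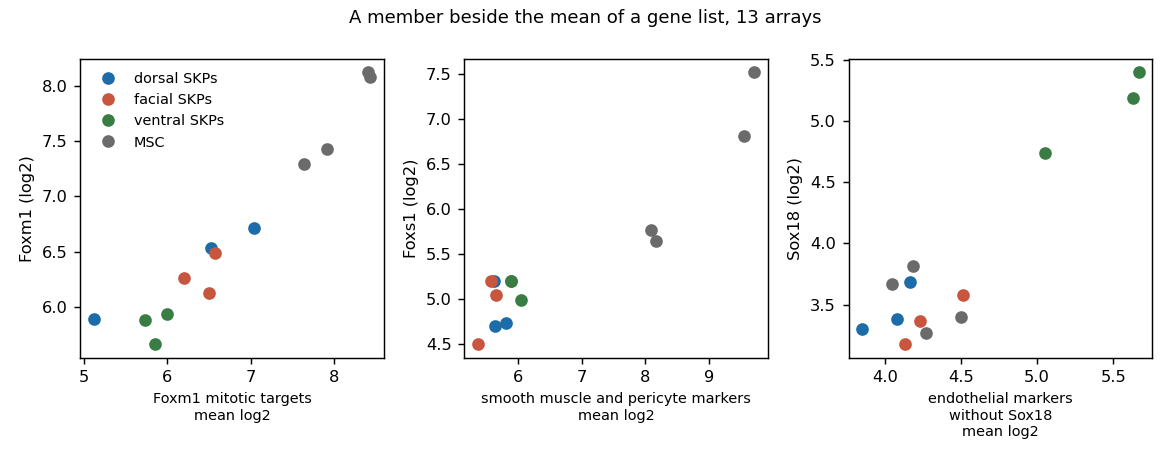
Each point is 1 of 13 arrays, with the log2 level of a gene on the vertical axis and the mean log2 level of a gene list on the horizontal axis, for Foxm1 and its mitotic targets, Foxs1 and smooth muscle and pericyte markers, and Sox18 and the other endothelial markers. MSC arrays are highest on both axes in the first and second plots, and the 3 ventral SKP arrays in the third.

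Within MSCs, 12 of the 77 genes (15.6%) had arrays 1 and 2 both more than 0.5 log2 units apart from both arrays 3 and 4, against a background of 6.99% of all genes. Arrays 1 and 2 were the higher pair for Dlx3, Foxo3, Foxq1, Irx3 and Sox5, and arrays 3 and 4 for Dlx5, Foxs1, Gata6, Lhx9, Sox11, Sox4 and Tbx18. The pairs and the gap of 0.5 were chosen after the values were seen, so this is a description. Irx3 was 8.11 and 7.85 on arrays 1 and 2 and 6.48 and 6.93 on arrays 3 and 4, with the trunk SKP arrays between the pairs. Lhx9, a gonad and limb factor, was 4.53 and 3.94 on arrays 1 and 2 and 5.92 and 5.26 on arrays 3 and 4. The labels name no batch, donor or tissue that would set the pairs apart.

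**Figure D5:**
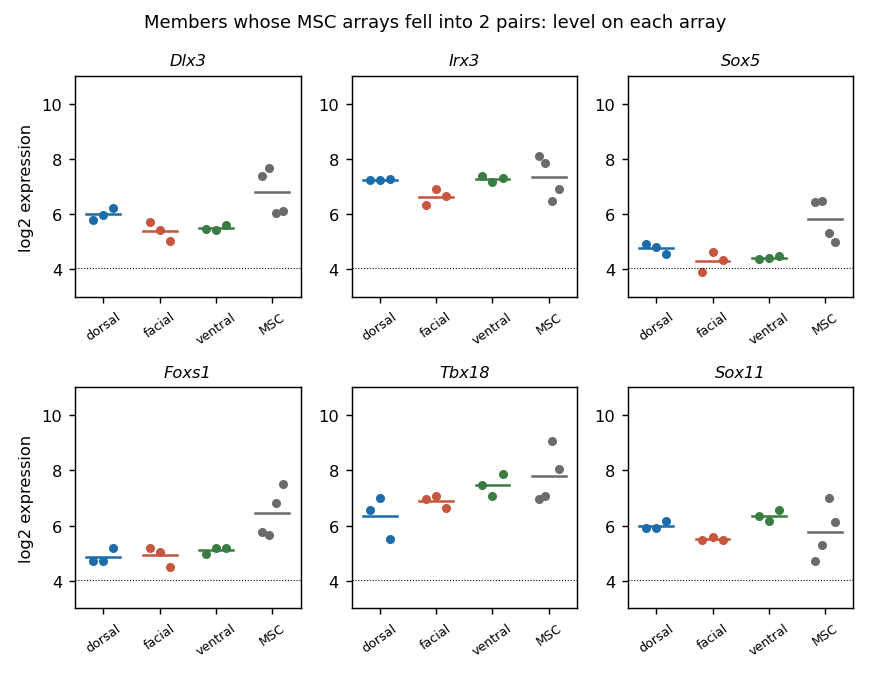
The log2 level on each array (points, arrays in number order from left to right) with group means (lines) is plotted for 6 genes whose MSC arrays fell into 2 pairs, with the highest group background level (4.04) as a dotted line. MSC arrays 1 and 2 lie above arrays 3 and 4 for Dlx3, Irx3 and Sox5 and below them for Foxs1, Tbx18 and Sox11.

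Across all 6 comparisons, 27 of the 77 genes (35.1%) were called at least once, against 35.9% of all genes. The 50 others had group means that lay 0.08 to 1.43 apart, with a median of 0.29. Between the 3 SKP regions alone, 9 genes (11.7%) had means more than 1 log2 unit apart, against 7.87% of all genes. Six3, an eye and forebrain factor, averaged 6.06 ± 0.16 for dorsal, 5.92 ± 0.13 for facial and 5.90 ± 0.09 for ventral SKPs (SD, n = 3 each) and 5.998 ± 0.09 in MSCs (SD, n = 4). Dlx1 averaged 5.26 ± 0.16, 5.11 ± 0.14 and 5.01 ± 0.26 in the same regions and 5.08 ± 0.29 in MSCs. Both genes were above background in every group. That level comes from other probe sets, so passing it does not by itself show that either gene is expressed.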

How the data were processed

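The arrays were Affymetrix Rat Gene 1.0 ST, and the deposited values are log2 levels that the authors made with RMA, per the labels, in Expression Console at the level of core genes. The submitters' processing notes also name limma, with no versions. Values ran from 0.78 to 14.06 and array medians from 4.91 to 5.01, and they were used as deposited. Arrays have no read depth, and their number limits the precision.

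Of 29215 probe sets, 15310 carried 1 gene symbol, 323 several and 13582 were unnamed, and the last 2 kinds were left out, among them 1 probe set shared by Narf and Foxk2. Symbols were updated through RefSeq (15279 by Entrez identifier, 6 by accession, 25 kept). Of the 14506 genes, 527 had several probe sets, Foxn3 among the genes described. Group means over 13 arrays were fitted with limma 3.58.1 in R 4.3.3 (lmFit, eBayes, two-sided), and the step was tested on simulated data. The spread of each gene was estimated over all groups together, so scatter between MSC arrays also enters the tests between SKP regions. P-values measure the spread between isolates that the series calls independent.

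The genes, lists and tests were chosen with earlier results of these data known. Named were genes called with a difference of at least 1 and above background, the 3 highest of each family, and neighbouring family members. Where a group was below background, its level was raised to that background and the difference given as a bound. Foxj2, Foxo4, Foxp4, Gata4 and Sox14 were called outside this rule and were named after their values were seen, as were other genes given in passing (Sox10, Foxd3, Lhx9). Gene lists came from general knowledge; those not printed above gave no call between SKPs and MSCs (Hedgehog targets, 3 measured; Schwann and glial, 7; keratinocyte, 6; T lymphocyte, 8) or, where 25.3% of all genes were called, these: stromal markers 2 rose and 1 fell of 9, melanocyte markers 3 rose of 5, and endothelial markers 6 rose and 1 fell of 9. Alternatives were 23 for SKPs against MSCs and 24 for the other comparisons: each array left out, pairs of arrays left out, other fits, filters and normalisations, a leukocyte covariate and the replicate number as a block.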

Additional observations from a re-analysis of the deposited data

Results flagged for a closer look

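Among the named genes, 1 had an MSC array apart from the other 3 relative to the range of the group. Lhx3, a pituitary and motor neuron factor, was 4.64 on MSC array 2 and 4.85 to 4.86 on the others, a gap of 0.948 of the group's range. The threshold used for such a gap is passed by chance in about 1 of 20 groups. In absolute terms the MSC arrays lay close for Lhx3, with an SD of 0.11 against a median SD of 0.19 over all genes in MSCs.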

How the results depend on the processing

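Counts of the 77 genes called moved by over 1.5 times under a few settings. Between SKPs and MSCs the count was 25, and it was 14 with the leukocyte covariate (13 of them shared) and 17 to 24 with any 1 array left out. The share of all genes called also fell, to 16.1% with the covariate against 25.3% without it. For facial against trunk SKPs the count was 6. It was 0 with the covariate in limma (15 at an unadjusted p under 0.05), where 0.386% of all genes were called, 2 without dorsal array 3 and facial array 3 (1.46% of all genes, against 2.7%), 10 without MSC arrays 3 and 4 (3.36%), and 1 to 8 with 1 array left out. For dorsal against ventral SKPs the count was 2, and it was 8 with array weights (10.5% of all genes, against 6.11%), 4 without MSC arrays 1 and 2 (6.69%), 5 without MSC arrays 3 and 4 (7.98%), 4 with the covariate (6.27%) and 1 to 4 with 1 array left out. Against MSCs, dorsal SKPs gave 17 calls (10 when fitted on these groups alone, with 8.62% of all genes against 16.5%, 14 to 17 with 1 array left out), facial SKPs 14 (6 with the covariate, with 5.26% against 19%, 12 to 17) and ventral SKPs 22 (17 to 24). The causes were not tested. Among the named genes, 5350 values stayed on their side of the threshold, 243 lost a call and 114 gained one. The only change of sign that came with a call was Irx3 in ventral SKPs against MSCs, which was -0.05 and was 0.59 (adjusted p = 0.0421) without MSC arrays 1 and 2.

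Replicate numbers come from the sample titles. Of 18 same-numbered pairs across groups 1 had a correlation of deviations over 0.1 (-0.122 to 0.199, against -0.275 to 0.294 for other numbers). These correlations showed no pairing by number. With so few arrays per group they cannot exclude one, and the labels do not say what the numbers mean. With the replicate block 20 of the 77 genes were called between SKPs and MSCs, 4 between facial and trunk, 2 between dorsal and ventral SKPs, and 16, 13 and 20 in dorsal, facial and ventral SKPs against MSCs. The shares of all genes called were then 19.1%, 1.19%, 3.9%, 12.4%, 14% and 19.6% in the same order. Genes below background, such as Gata4 and Six6, give no sure direction.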
